A study of Mus musculus with 16 samples.

Results

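The genes described here are 10 genes of MHC class I antigen presentation, H2-K1, H2-D1, B2m, Tap1, Tap2, Tapbp, Psmb8, Psmb9, Psmb10 and Nlrc5, chosen by name from the 24974 genes that both count tables of the series hold. They were chosen with earlier results of these data known. All 10 were found in both tables and all 10 passed the filter on low counts in each comparison. RNA-seq was carried out on 16 mouse thymocyte samples in 4 groups. These were control DP (CD4+CD8+ double positive) thymocytes (n = 3), cKO DP thymocytes (n = 3), control CD8 thymocytes (n = 5) and cKO CD8 thymocytes (n = 5). Control mice were labelled Tox4;F/F, and thus carried loxP-flanked Tox4 alleles without Cre. The cKO mice were labelled Tox4;F/F;Lck+ for the DP samples and Tox4;F/F;Lck-cre for the CD8 samples. The loxP sites flank exons 4 to 6 of Tox4, the floxed line was made on a C57BL/6 background, and Cre is driven by the proximal Lck promoter, so that deletion begins in the early, DN3 stage of T cell development in both cell types. The study's mice were littermates of 6 to 8 weeks matched for sex. CD8 thymocytes had been sorted as TCRβ+CD8+ cells. The labels do not say which samples came from which animal, so p-values measure the spread between these samples.

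MHC class I molecules display peptides from the inside of the cell to CD8 T cells, and consist of a heavy chain (H2-K1 or H2-D1 here), beta-2 microglobulin (B2m) and a peptide. Peptides are cut by the proteasome, in which the interferon-inducible subunits Psmb8, Psmb9 and Psmb10 can take the places of Psmb5, Psmb6 and Psmb7, carried into the endoplasmic reticulum by the Tap1 and Tap2 transporter and loaded with the help of tapasin (Tapbp), while Nlrc5 is a transactivator of class I genes. In the thymus, class I molecules on other cells select CD8 T cells, and DP thymocytes are known for less class I on their own surface than mature T cells.

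The summed gene counts were 16524506, 18484568 and 17221704 in DP control replicates 1 to 3 and 21154634, 14583336 and 25981683 in DP cKO replicates 1 to 3. In CD8 they were 9420085, 10882293, 9899833, 10949265 and 13530783 in control replicates 1 to 5 and 11687062, 11828492, 8905915, 8894000 and 8514135 in cKO replicates 1 to 5. Levels are given as CPM (counts divided by the library's total and given on a common scale), scaled over all 16 samples by edgeR's TMM factors, or as TPM, which also divides by the length of the exons and is used wherever different genes are compared. Tox4, the targeted gene, was at 149, 165 and 175 CPM in DP control replicates 1 to 3 and at 128, 135 and 129 CPM in DP cKO replicates 1 to 3. All 3 DP cKO samples were below all 3 controls (exact 2-sided permutation p = 0.1, the smallest that 3 against 3 can give). In CD8, Tox4 was at 199, 191, 204, 207 and 183 CPM in control replicates 1 to 5 and at 173, 189, 178, 237 and 168 CPM in cKO replicates 1 to 5. The library labelled cKO replicate 4 of the CD8 samples was above every control, which goes against its label, and the 2 groups overlapped. Counts were made over the whole gene, so they include exons outside the deleted part and check the labels only in part.

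Of 10 DP marker genes, Rag1 was the most abundant by TPM in 5 of the 6 DP samples (Cd8b1 in cKO replicate 3), and it was at 6350 to 9150 CPM in the 6. In control CD8 against control DP, 9 of the 10 were called lower, and 9 of 12 CD8 single-positive markers, such as Runx3 (log2 fold change 4.09), S1pr1 (7.76) and Itgae (6.48), were called higher and 2 lower, Ccr9 (-0.97) and Cd8b1 (-0.80). Cd8a and Cd8b1 stand in both lists, and Cd8a (-0.39) was not called. Cd8a was at 1328 to 1636 CPM in the 10 CD8 samples, while Cd4 ran from 3.67 to 66.4 CPM in the CD8 controls and from 5.88 to 77.7 CPM in CD8 cKO.

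A few libraries stood apart before any class I gene was considered. CD8 control replicate 1 detected 17741 genes, while the remaining CD8 controls detected 13708 to 14194, and the summed level of 7 B cell markers was 44.8 CPM there against 9.98 to 15.9 CPM in the other CD8 controls and up to 28.7 CPM in CD8 cKO, with Cd79b the most abundant by TPM. The summed level of 5 CD4 single-positive markers was 332 and 310 CPM in CD8 control replicates 1 and 2 and 126, 112 and 139 CPM in replicates 3 to 5. In CD8 cKO replicates 1 and 2 it was 347 and 325 CPM, and in replicates 3 to 5 it was 122, 129 and 123 CPM, with Gata3 the most abundant gene by TPM in all 10. In DP control replicate 2 the summed level of 9 MHC class II genes was 193 CPM, against 111 and 95.7 CPM in replicates 1 and 3, and that of 10 macrophage and dendritic cell markers was 50.6 CPM against 23.5 and 22.5 CPM.

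Control CD8 thymocytes were set against control DP thymocytes to show how the class I genes differ between the stages in mice without the deletion. Of the 10 genes, 6 were called higher in CD8 (Nlrc5, H2-K1, B2m, H2-D1, Tapbp and Tap1), against 22% of all 11758 genes tested, and 1 was called lower (Tap2), against 22.3%. A gene was called when its adjusted p by edgeR's quasi-likelihood test was under 0.05, its fold change reached 1.5 and its mean reached 1 TPM. The samples of the 2 groups did not overlap for 8 of the 10, against 56.8% of all genes tested. The median log2 fold change was 1.32 over the 10 genes and -0.011 over all genes tested. Because the 10 genes and the lists below were chosen with earlier results of these data known, such shares are descriptions and not tests. Cell type and count table cannot be told apart in this comparison, and fewer cells of a type and less RNA per cell cannot be told apart in any of the bulk samples. The DP controls and the CD8 controls are also the controls of the cKO comparisons.

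**Figure D1:**
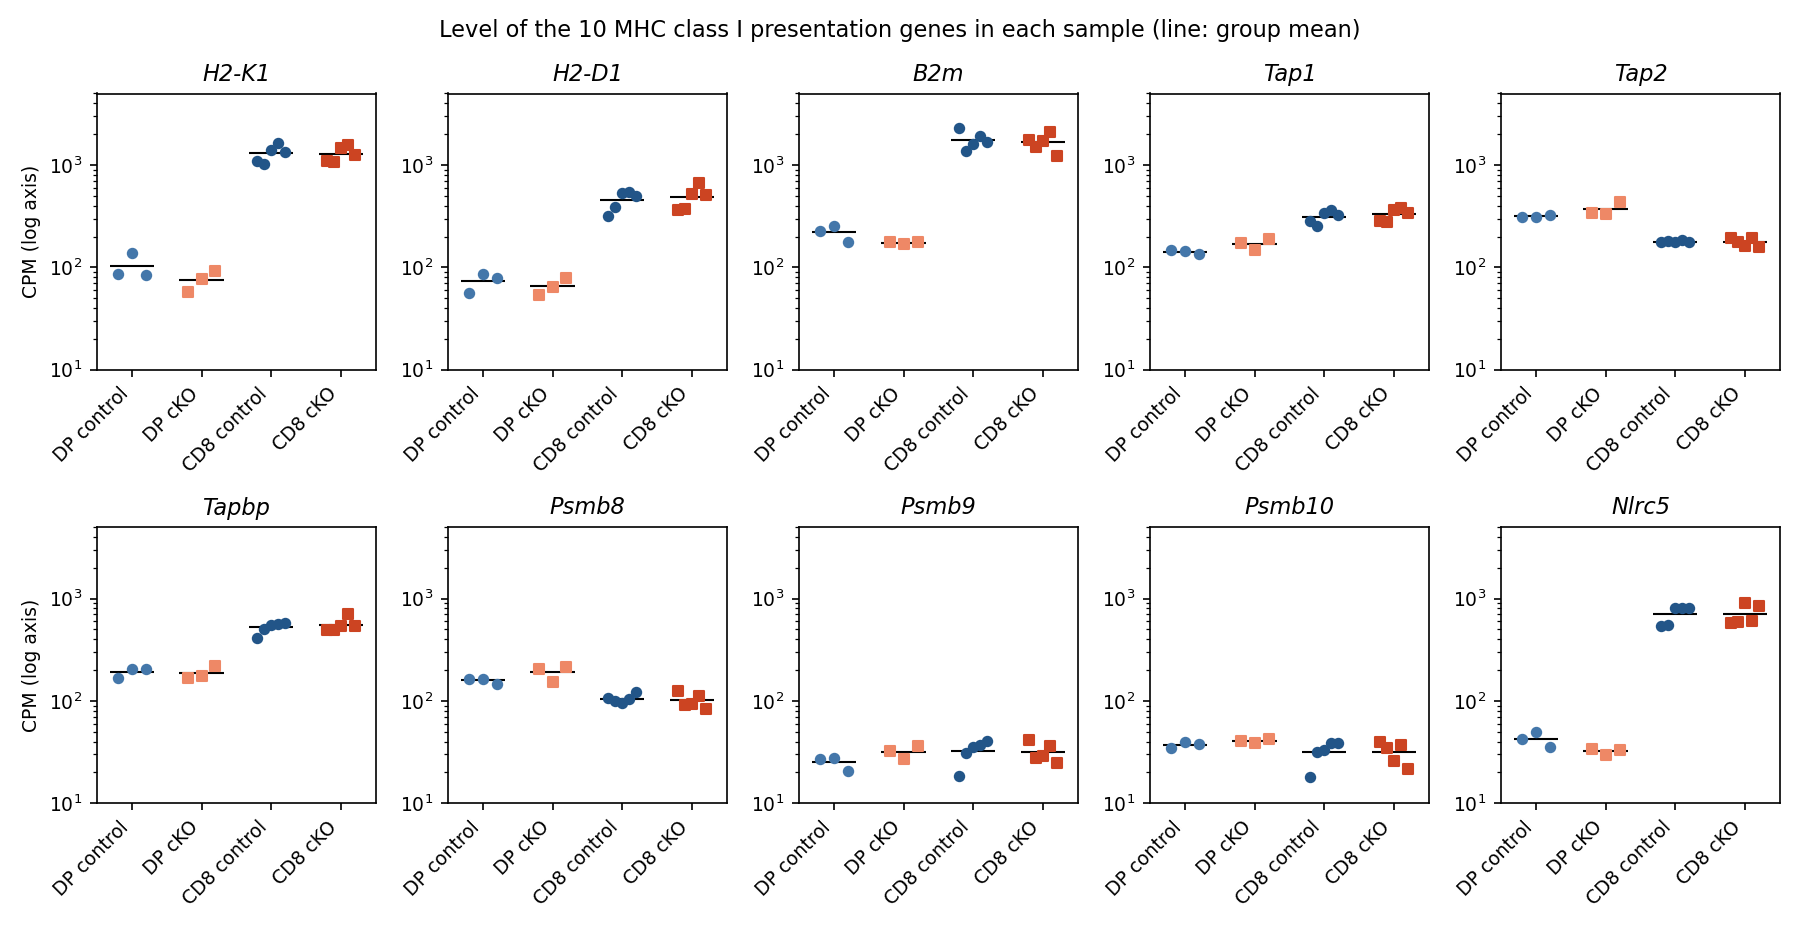
Level of each of the 10 genes in each sample, in CPM on a log axis, with a point per sample (circles, control; squares, cKO) and a line at the group mean. The 5 control CD8 samples lie above the 3 control DP samples for H2-K1, H2-D1, B2m, Tap1, Tapbp and Nlrc5 and below them for Tap2 and Psmb8.

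The heavy chains H2-K1 (chr17:33996012-34000347, minus strand, mm10) and H2-D1 (chr17:35263094-35267497, plus strand) form the grooves that hold the peptide. H2-K1 was at 85.9, 137 and 83.3 CPM in DP control replicates 1 to 3 and at 1087, 1018, 1417, 1631 and 1345 CPM in CD8 control replicates 1 to 5. Every CD8 control was thus above every DP control, and CD8 control replicates 1 and 2 were the lowest of their group. The log2 fold change was 3.70 ± 0.23 (SE, adjusted p = 1.2e-07 by edgeR). H2-D1 was at 55.9, 85.2 and 77.9 CPM in the DP controls and at 320, 385, 536, 539 and 495 CPM in the CD8 controls. Again the groups did not overlap and CD8 control replicates 1 and 2 were the lowest CD8 samples. The log2 fold change of H2-D1 was 2.67 ± 0.21 (SE, adjusted p = 6.99e-07).

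B2m (chr2:122147687-122153082, plus strand), which encodes the light chain that every class I heavy chain needs, was at 227, 251 and 179 CPM in the DP controls and at 2312, 1356, 1612, 1903 and 1692 CPM in the CD8 controls. CD8 control replicate 1, low in H2-D1, was the highest in B2m. The log2 fold change was 3.05 ± 0.20 (SE, adjusted p = 1.61e-07). For each of H2-K1, H2-D1 and B2m the exact 2-sided permutation p was 0.0357, the smallest that 5 against 3 samples can give. Together the 3 genes took 0.0409% ± 0.00738 (SD, n = 3) of the counts in control DP and 0.346% ± 0.0451 (SD, n = 5) in control CD8. Per length, B2m ranked 159 of 11589 expressed genes (mean of at least 1 TPM) in control DP and 3 of 11993 in control CD8, while H2-K1 ranked 1088 and 21. In the reference transcripts, 9.63% of the 50-base stretches of H2-K1 and 12.8% of those of H2-D1 also occur in other genes, most often H2-Q10 and H2-Q1, so counts of both heavy chains are uncertain to that extent, while B2m shares none.

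The sequences before these starts are shown because the 3 genes were all higher in CD8. RefSeq promoter windows (GRCm38.p6, 250 bases before to 50 after each start) were found for 8 of the 10 genes, with 9 windows in all since H2-K1 has 2; Tap2 and Nlrc5 had none. Capitals mark matches on either strand to TGACGC, the core of an X2 box, or to GAAANNGAA, an interferon response element-like core. They also mark those to GGGANTTCC, a kappa B-like core, or to the CCAAT box. No 2 matches overlapped. The 250 bases before the start of H2-K1 that adjoins its annotated gene lie at chr17:34000348-34000597 (minus strand), those of H2-D1 at chr17:35262844-35263093 (plus strand) and those of B2m at chr2:122147437-122147686 (plus strand), and read 5′ to 3′:
H2-K1: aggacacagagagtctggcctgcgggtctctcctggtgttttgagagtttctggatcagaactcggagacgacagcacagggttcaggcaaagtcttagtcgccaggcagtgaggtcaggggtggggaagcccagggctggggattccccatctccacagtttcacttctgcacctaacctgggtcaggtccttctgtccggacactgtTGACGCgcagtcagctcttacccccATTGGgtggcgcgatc
H2-D1: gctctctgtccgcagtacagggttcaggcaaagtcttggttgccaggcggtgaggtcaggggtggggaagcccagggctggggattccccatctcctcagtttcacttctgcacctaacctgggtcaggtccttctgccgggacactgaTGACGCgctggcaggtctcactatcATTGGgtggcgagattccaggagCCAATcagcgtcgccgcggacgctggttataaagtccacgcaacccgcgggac
B2m: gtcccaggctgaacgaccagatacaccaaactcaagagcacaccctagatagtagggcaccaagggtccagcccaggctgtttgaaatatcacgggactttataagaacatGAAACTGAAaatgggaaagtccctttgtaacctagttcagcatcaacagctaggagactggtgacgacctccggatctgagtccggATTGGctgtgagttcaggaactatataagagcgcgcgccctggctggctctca

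The X2-like core was found in 3 of the 9 windows (both of H2-K1 and that of H2-D1) and in 7.40% of all 32851 windows. The interferon response element-like core was found in 1 of the 9, that of B2m, against 8.56% of all windows. Only GAAANNGAA was searched for it, so a window without a match may hold the element in another spelling or spacing. CCAAT was found in 7 of the 9, against 37.4%, and the letters GGGANTTCC in 0 of the 9, against 1.68%. The 2 windows of H2-K1 overlap, so that their X2-like core is a single site, as is the CCAAT in the windows of Tap1 and Psmb9. The letters GGGATTCCC, near the kappa B-like core but outside its pattern, were chosen after the sequences had been read. They stand in the 3 heavy chain windows and in 0.353% of all windows. The 0 for GGGANTTCC thus covers that pattern alone. In both heavy chain promoters the first base of the reversed CCAAT lies 25 bases after the first base of the X2-like core. With the windows laid over each other at that core, 176 of 240 bases were identical between H2-K1 and H2-D1 (73.3%). These matches describe letters in the windows, and nothing was measured at them.

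**Figure D2:**
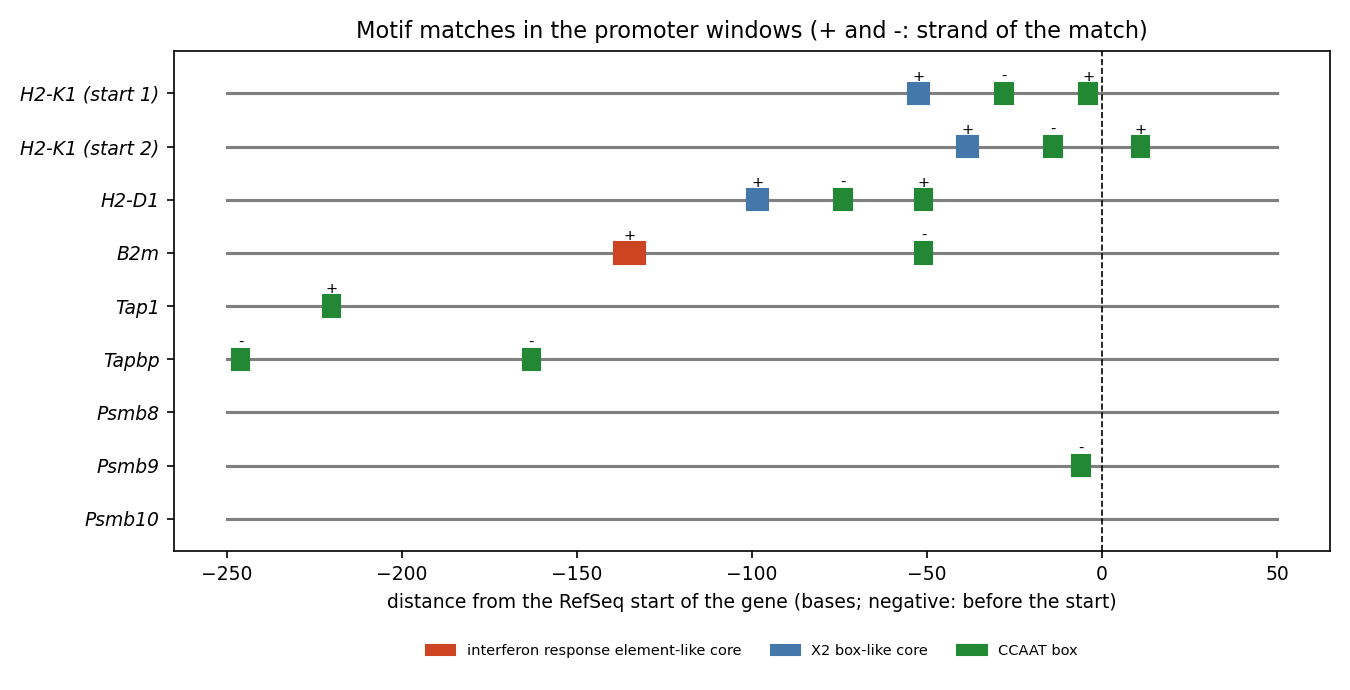
Positions of the motif matches in the 9 promoter windows (grey lines), in bases from the RefSeq start of each gene, with the strand of the match written above it. The X2-like core (blue) and the CCAAT box (green) lie in the same order in H2-K1 and H2-D1. The letters GAAANNGAA (red), the only form of an interferon response element searched, matched in B2m alone among these windows.

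Tap1 (chr17:34187556-34197225, plus strand) and Tap2 (chr17:34204479-34216321, plus strand) encode the 2 chains of the peptide transporter, and they differed in direction. Tap1 was at 146, 143 and 136 CPM in the DP controls and at 284, 252, 337, 361 and 328 CPM in the CD8 controls. Every CD8 control was above every DP control, and the log2 fold change was 1.17 ± 0.12 (SE, adjusted p = 8.39e-06). Tap2 was at 313, 308 and 328 CPM in the DP controls and at 176, 181, 178, 184 and 175 CPM in the CD8 controls. Every CD8 control was below every DP control, with little spread in either group, and the log2 fold change was -0.80 ± 0.08 (SE, adjusted p = 4.62e-06). The ratio of Tap1 to Tap2 in TPM was 0.395, 0.392 and 0.349 in the DP controls and 1.37, 1.18, 1.6, 1.66 and 1.58 in the CD8 controls. Tap2 was thus the more abundant of the pair in each DP control and Tap1 in each CD8 control. Tapbp (chr17:33919478-33929290, plus strand), the loading chaperone that bridges the transporter and the heavy chain, was at 166, 205 and 204 CPM in the DP controls and at 415, 508, 554, 569 and 573 CPM in the CD8 controls. The groups did not overlap, CD8 control replicate 1 was the lowest CD8 sample, and the log2 fold change was 1.48 ± 0.13 (SE, adjusted p = 2.11e-06).

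Tap1 and Psmb9 lie head to head, and 225 bases separate their starts (chr17:34187331-34187555, GRCm38.p6), shown here on the plus strand because Tap1 was called higher in CD8 and Psmb9 was not:
Psmb9 to Tap1: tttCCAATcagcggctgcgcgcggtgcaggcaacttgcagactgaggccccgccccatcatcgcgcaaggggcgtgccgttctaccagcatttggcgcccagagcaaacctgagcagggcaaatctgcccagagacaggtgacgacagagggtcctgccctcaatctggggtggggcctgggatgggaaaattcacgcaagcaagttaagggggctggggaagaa
The capitals mark the single match to any of the 4 motifs, a CCAAT whose nearest base is 4 bases before the start of Psmb9 and 218 bases before that of Tap1.

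The interferon-inducible proteasome subunits moved less. Psmb8 (chr17:34198195-34201454, plus strand) was at 164, 164 and 146 CPM in the DP controls and at 106, 98.6, 95.8, 104 and 121 CPM in the CD8 controls. The groups did not overlap, but the log2 fold change of -0.56 ± 0.10 (SE, adjusted p = 0.000449) was a fold of 1.48 downwards, just under the required 1.5. Without DP control replicate 3, without CD8 control replicate 5, with the fit over all 4 groups or with the replicate number as a block it passed, and 2 of the 10 genes were then called lower. Psmb9 (chr17:34182099-34187330, minus strand) was at 27.1, 27.7 and 20.7 CPM in the DP controls and at 18.6, 30.8, 35.3, 37.2 and 40.5 CPM in the CD8 controls. Of the CD8 controls, 4 were above every DP control and replicate 1 was below every one. The log2 fold change was 0.40 ± 0.22 (SE, adjusted p = 0.135), and 0.55 (adjusted p = 0.00702) without CD8 control replicate 1, which is still under the required fold. Psmb10 (chr8:105935728-105938392, minus strand) was at 34.8, 40.0 and 37.5 CPM in the DP controls and at 18.0, 31.7, 32.8, 38.5 and 38.4 CPM in the CD8 controls. Here too CD8 control replicate 1 was the lowest sample, the groups overlapped, and the log2 fold change was -0.20 ± 0.20 (SE, adjusted p = 0.409). With single samples left out that of Psmb10 ran from -0.27 to -0.049.

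Their constitutive counterparts differed more. Psmb5 (log2 fold change -1.72), Psmb6 (-1.59) and Psmb7 (-1.74) were all called lower in CD8, along with most of the list of 14 constitutive core subunits, of which 12 were called lower and 0 higher by edgeR (13 at an unadjusted p under 0.05, all below 0). The ratio of Psmb8 to Psmb5 in TPM was 3.92, 3.11 and 3.34 in the DP controls and 10.9, 7.76, 6.96, 7.31 and 6.67 in the CD8 controls. That of Psmb9 to Psmb6 was 0.409, 0.349 and 0.257 in the DP controls and 0.805, 1.71, 1.58, 1.16 and 1.48 in the CD8 controls. That of Psmb10 to Psmb7 was 0.315, 0.335 and 0.355 in the DP controls and 0.970, 0.975, 0.928, 1.04 and 0.957 in the CD8 controls. Each of the 3 ratios was higher in every CD8 control than in any DP control. CD8 control replicate 1 had the highest Psmb8 ratio and the lowest Psmb9 ratio of its group.

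Nlrc5 (chr8:94472763-94527272, plus strand) had the largest log2 fold change of the 10. It was at 42.4, 49.9 and 35.7 CPM in the DP controls and at 534, 553, 807, 800 and 807 CPM in the CD8 controls. CD8 control replicates 1 and 2 were the lowest of their group, the other 3 were nearly equal, and the groups did not overlap. The log2 fold change was 4.06 ± 0.21 (SE, adjusted p = 2.72e-08), and per length Nlrc5 ranked 7412 of 11589 expressed genes in control DP and 504 of 11993 in control CD8. CD8 control replicates 1 and 2, with low Nlrc5, H2-K1, H2-D1 and Tap1, were those with a high summed level of CD4 single-positive markers. Those 2 samples were also the lowest CD8 controls in summed CD8 single-positive markers (6909 and 6178 CPM, against 7261 to 8005 CPM). In summed DP markers they were the highest (2773 and 2738 CPM, against 2437 to 2574 CPM). The part of the markers of these 3 lists in the levels was not tested.

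By mean TPM the order in control DP was B2m (756), Psmb8 (383), Tap2 (376), Tapbp (205), H2-K1 (181), Tap1 (142), H2-D1 (124), Psmb9 (92.5), Psmb10 (87.0) and Nlrc5 (18.2). B2m stood above Psmb8, Tap2 above Tapbp and Psmb10 above Nlrc5 in every sample, and all other neighbours in the order overlapped between samples. In control CD8 the order was B2m (6531), H2-K1 (2474), H2-D1 (830), Tapbp (603), Tap1 (335), Nlrc5 (319), Psmb8 (272), Tap2 (227), Psmb9 (128) and Psmb10 (79.5). There H2-D1 and Tapbp, Tap1 and Nlrc5, Nlrc5 and Psmb8, and Psmb9 and Psmb10 overlapped between samples, and the other neighbours did not. B2m per heavy chain (B2m over the sum of H2-K1 and H2-D1, in TPM) was 3.16, 2.23 and 2.19 in the DP controls and 3.21, 1.89, 1.62, 1.72 and 1.80 in the CD8 controls. CD8 control replicate 1 alone among the CD8 controls reached the level of the DP controls, as CD8 cKO replicate 1 (2.36) did.

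**Figure D3:**
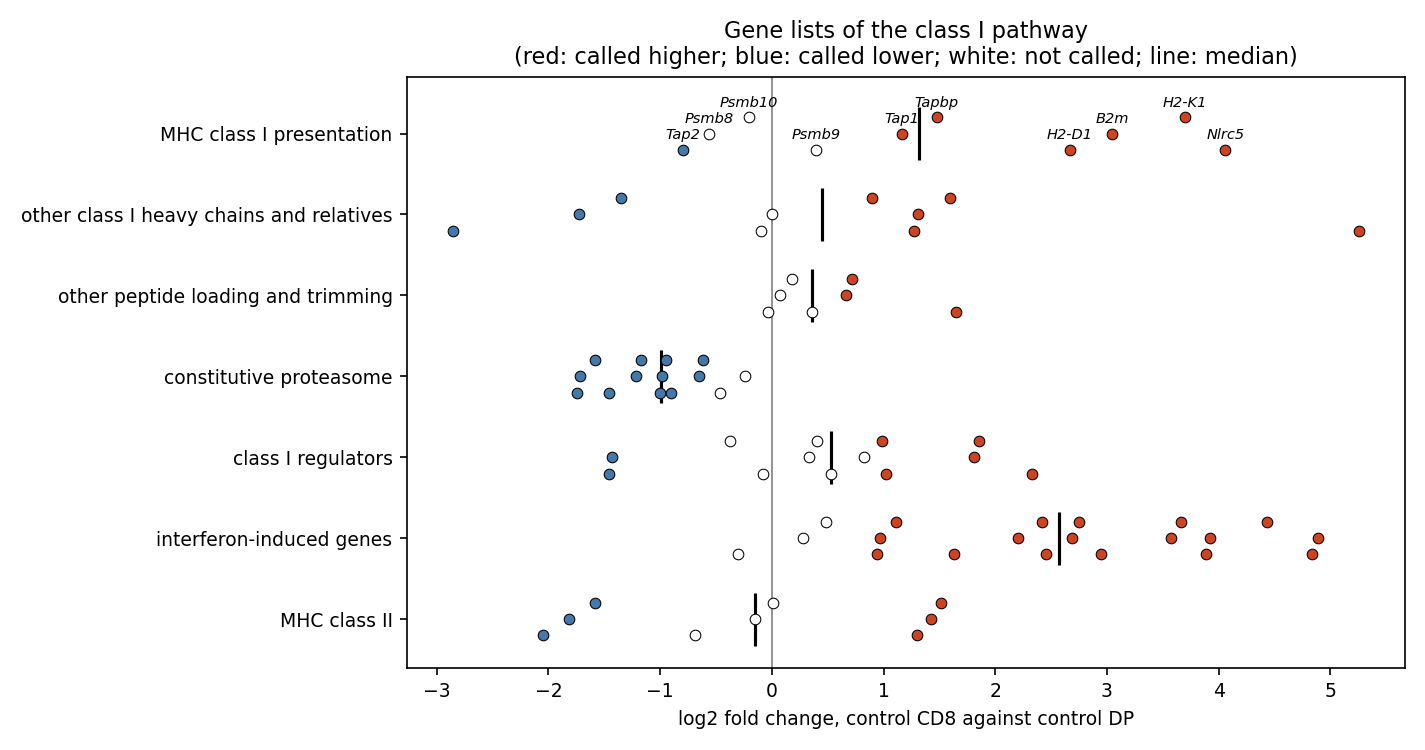
Log2 fold change of control CD8 against control DP for each tested gene of 7 lists, a point per gene, coloured by whether it was called, with a line at the median of the list. All points of the constitutive proteasome lie below 0 and 17 of the 20 interferon-induced genes were called higher.

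Other genes of the pathway were compared in the same way. Of the other class I heavy chains and relatives, 10 of 13 were tested, and 5 were called higher and 3 lower (median log2 fold change 0.45). H2-Q6 (5.26), H2-T24 (1.59) and H2-Q4 (1.31) were higher in CD8, and Mr1 (-2.86), Cd1d2 (-1.73) and Cd1d1 (-1.35), which present ligands other than peptides, were lower. Of 7 other genes of peptide loading and trimming, 3 were called higher, namely the trimming enzyme Erap1 (1.65) and the chaperones Calr (0.72) and Pdia3 (0.67), and 0 lower by edgeR, with 4 at an unadjusted p under 0.05. Of 13 regulators of class I genes, 5 were called higher, among them Irf9 (1.86) and Ifngr2 (1.81), and 2 lower, the interferon-gamma receptor chain Ifngr1 (-1.43) and Rfxap (-1.46). Rfx5 (0.40, adjusted p = 0.0145), which binds the X box with Rfxap and Rfxank, and Irf1 (0.82, adjusted p = 0.143) were not called.

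Of 20 interferon-induced genes, 17 were called higher, among them Mx1 (log2 fold change 4.89), Ifit3 (4.84) and Ifit1 (4.43), and 0 lower by edgeR, with 18 at an unadjusted p under 0.05. Their median was 2.57. Their summed level was 357, 350 and 290 CPM in the DP controls and 1583, 1226, 1412, 1499 and 1556 CPM in the CD8 controls. Of 9 MHC class II genes, 3 were called higher (H2-DMa, H2-Oa and H2-Ob) and 3 lower (H2-Aa, H2-Ab1 and H2-Eb1), with a median of -0.15. Of the macrophage and dendritic cell list 7 of 10 markers were tested, and 3 were called lower in CD8 (C1qa, Csf1r and Lyz2) and 1 higher (Cd68). Of the remaining marker lists, 1 of 5 CD4 single-positive markers was called higher (Foxp3) and 2 lower (Cd4 and Zbtb7b), 1 of 6 tested B cell markers lower (Cd79b), 3 of 4 tested NK and gamma-delta T cell markers higher, and of the 2 tested thymic epithelial markers Ly75 higher and Epcam lower. The 6 erythroid markers were at or near 0 in all samples and none was tested.

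The comparison of cKO with control DP thymocytes asks whether these genes differ in DP thymocytes without functional Tox4. Of the 10 genes, 0 were called higher and 0 lower by edgeR, against 0.0851% and 0.0596% of all 11748 genes tested (10 and 7 genes). At an unadjusted p under 0.05 there were 2, B2m and Nlrc5, against 1079 of all genes tested. DESeq2 also called 0, with 2 at an unadjusted p under 0.05, against 1182 of 16897 genes. Over the alternatives this count of the 10 ran from 0 to 5. It was 0 without control replicate 2 or with all 4 groups in the fit. It was 5 with the replicate block, against 1941 of all genes tested. In CPM the samples of the groups did not overlap for 4 of the 10 (B2m, Tap1, Tap2 and Nlrc5), against 15.1% of all genes tested. In TPM, tried after seeing the data, they did not overlap for 2 (Tap2 and Nlrc5). No share over all genes is given in TPM, so nothing is concluded from that count. By log2 fold change 5 genes were above 0 and 5 below, the median was 0.041 (-0.0011 over all genes tested), and the smallest adjusted p was 0.427.

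B2m was at 177, 169 and 176 CPM in DP cKO replicates 1 to 3, beside 227, 251 and 179 CPM in the controls. In CPM all cKO samples were below the controls, of which replicate 3 was nearly as low, and in TPM cKO replicate 1 (619) was above control replicate 3 (598). Its log2 fold change was -0.33 (95% confidence interval -0.65 to -0.02, adjusted p = 0.497). Nlrc5 was at 33.7, 29.7 and 33.2 CPM in the cKO samples, beside 42.4, 49.9 and 35.7 CPM, and had a log2 fold change of -0.41 (-0.75 to -0.07, adjusted p = 0.427). All 3 cKO samples were below all 3 controls, and control replicate 3 was the nearest. H2-K1 was at 57.6, 77.3 and 92.4 CPM in the cKO samples, beside 85.9, 137 and 83.3 CPM, and H2-D1 at 54.0, 64.5 and 78.5 CPM, beside 55.9, 85.2 and 77.9 CPM. The groups overlapped for both heavy chains, and control replicate 2 was the highest sample. Their log2 fold changes were -0.43 (-0.95 to 0.09) and -0.16 (-0.58 to 0.27). With single samples left out that of H2-K1 ran from -0.58 to -0.16 (without control replicate 2) and that of H2-D1 from -0.32 to -0.024.

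Tap1 was at 173, 147 and 189 CPM in the cKO samples, beside 146, 143 and 136 CPM in the controls, with a log2 fold change of 0.26 (-0.01 to 0.52, adjusted p = 0.560). Tap2 was at 340, 331 and 433 CPM, beside 313, 308 and 328 CPM, with a log2 fold change of 0.21 (-0.06 to 0.49, adjusted p = 0.664). With single samples left out that of Tap2 ran from 0.10 to 0.27. For both transporter genes every cKO sample was above every control in CPM, cKO replicate 2 only just, while in TPM Tap1 of cKO replicate 2 (147) was below control replicate 1 (154). The 3 inducible proteasome subunits also had log2 fold changes above 0, of 0.27 for Psmb8, 0.34 for Psmb9 and 0.11 for Psmb10, with adjusted p of 0.598 to 0.842 and overlapping groups. Psmb8 was at 203, 154 and 216 CPM and Psmb9 at 32.1, 27.1 and 36.3 CPM in the cKO samples, replicate 2 being within the controls in each. Tapbp was at 166, 176 and 221 CPM, with a log2 fold change of -0.032 whose sign changed when single samples were left out. For each of B2m, Nlrc5, Tap1 and Tap2 the exact 2-sided permutation p was 0.1, the smallest that 3 against 3 can give, so that this test cannot pass 0.05 here.

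Markers of other cells were compared between the DP groups as well. The summed levels of the class II and of the macrophage and dendritic cell lists overlapped between the groups. Of the 9 MHC class II genes, 8 had log2 fold changes below 0 (median -1.09; 0 called by edgeR, 6 at an unadjusted p under 0.05). Their summed level was 111, 193 and 95.7 CPM in the controls and 61.7, 79.8 and 101 CPM in cKO, with Cd74 the most abundant by TPM in 5 of the 6 samples (H2-Oa in cKO replicate 1) and none at 0. Of 8 tested macrophage and dendritic cell markers, 6 were below 0 (median -0.89; 0 called, 4 at an unadjusted p under 0.05). Their summed level was 23.5, 50.6 and 22.5 CPM in the controls and 19.4, 21.1 and 29.8 CPM in cKO, led by Cd68 or Lyz2 in TPM, with Xcr1 at 0 in 1 control and 2 cKO samples. Of the 12 CD8 single-positive markers, 10 were below 0 (median -0.36; 0 called, 5 at an unadjusted p under 0.05). Their summed level, led by Cd8b1 in TPM, was 5584, 4810 and 4923 CPM in the controls. In cKO it was 4701, 3841 and 4165 CPM, every cKO sample below every control. The largest parts of the sum were Cd8a, Cd8b1 and Ccr9, with means of 2084, 1481 and 1252 CPM in the controls. Their means were 1529, 1385 and 1057 CPM in cKO. In control CD8 these genes were lower than in control DP, at means of 1558, 836 and 627 CPM. The sum thus does not count single-positive cells. The part of these markers in the values of B2m, Nlrc5 and the heavy chains was not tested.

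In the remaining lists edgeR also called 0 genes in DP. Median log2 fold changes were 0.13 for the constitutive proteasome (12 of 14 above 0), -0.03 for other class I heavy chains and relatives, -0.11 for peptide loading and trimming, -0.07 for class I regulators and 0.05 for interferon-induced genes, with 0, 0, 1, 0 and 4 genes at an unadjusted p under 0.05. For markers they were 0.02 for DP, -0.54 for CD4 single-positive, -0.48 for B cell, -0.40 for thymic epithelial and 0.04 for NK and gamma-delta T cells, with 1, 2, 3, 0 and 0 genes at an unadjusted p under 0.05. Over all genes, the test called 0 to 6 higher and 0 to 2 lower when any 1 of the 6 samples was left out, with 0 and 0 without control replicate 2, and DESeq2 called 91 and 68.

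**Figure D4:**
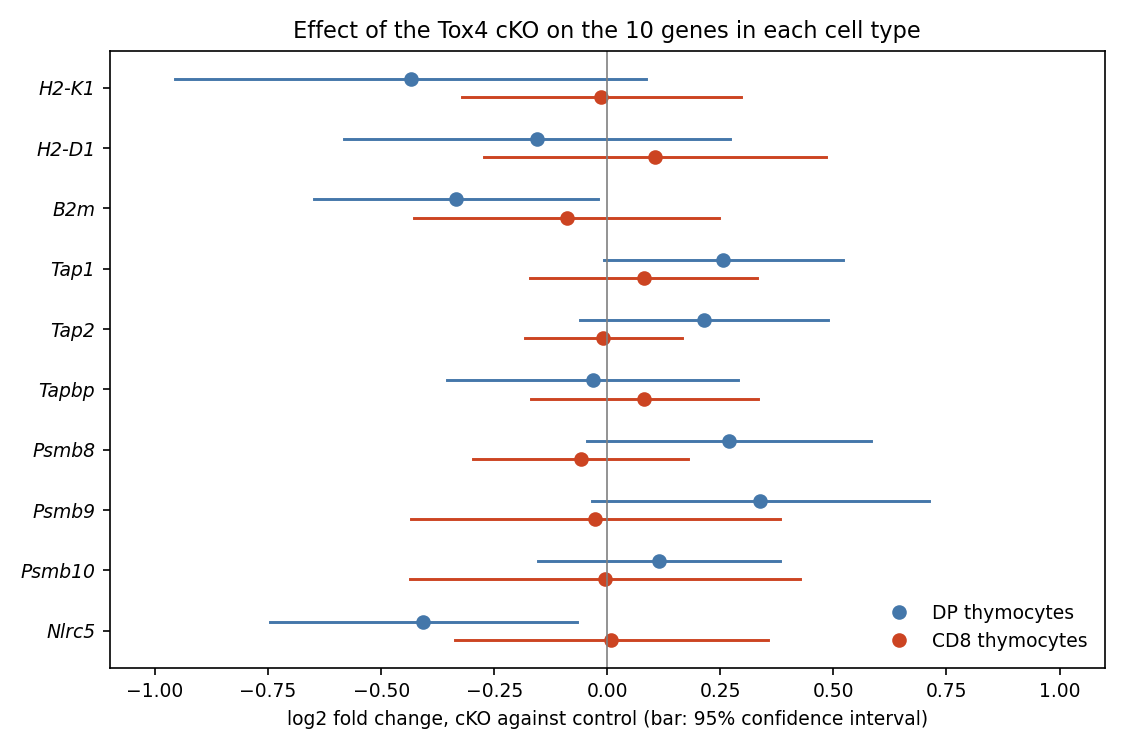
Log2 fold change of cKO against control for the 10 genes in DP (blue) and CD8 (red) thymocytes, with a bar for the 95% confidence interval. In CD8 all 10 points lie between -0.09 and 0.10 and every interval includes 0, and in DP only the intervals of B2m and Nlrc5 leave out 0.

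In CD8 thymocytes, cKO was compared with control in the same way. EdgeR called 0 of the 10 higher and 0 lower, against 0.0891% and 0.00891% of all 11227 genes tested (10 genes and 1 gene). At an unadjusted p under 0.05 there were 0 by edgeR, against 629 of all genes tested, and 0 by DESeq2, against 704 of 19757. With the replicate number as a block the test called 25 genes higher and 6 lower, and again 0 of the 10. With single samples left out it called 3 (without control replicate 3) to 18 (without the library labelled cKO replicate 4) higher, 1 or 2 lower and 0 of the 10. The samples overlapped for all 10, against 1.5% of genes tested whose samples did not. Log2 fold changes ran from -0.09 (B2m) to 0.10 (H2-D1), with a median of -0.0070 over the 10 and -0.0060 over all genes tested, and adjusted p of at least 0.979.

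H2-K1 was at 1087, 1065, 1456, 1555 and 1262 CPM in CD8 cKO replicates 1 to 5, beside 1087, 1018, 1417, 1631 and 1345 CPM in the controls. Replicates 1 and 2 were the lowest of each group, and control replicate 4 and the library labelled cKO replicate 4 the highest. Its log2 fold change was -0.013 (95% confidence interval -0.32 to 0.30). H2-D1 was at 367, 373, 525, 670 and 506 CPM in cKO, beside 320, 385, 536, 539 and 495 CPM in the controls, with a log2 fold change of 0.10 (-0.27 to 0.48). The library labelled cKO replicate 4 was the highest, and without it the value was -0.04. B2m was at 1756, 1502, 1724, 2121 and 1229 CPM in cKO, beside 2312, 1356, 1612, 1903 and 1692 CPM, with a log2 fold change of -0.09 (-0.43 to 0.25). Control replicate 1 was the highest of all 10 samples and cKO replicate 5 the lowest, and without control replicate 1 the value was 0.03.

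Nlrc5 was at 577, 595, 906, 599 and 838 CPM in CD8 cKO, beside 534, 553, 807, 800 and 807 CPM in the controls. The library labelled cKO replicate 4, high in H2-D1, B2m and Tapbp, was with replicates 1 and 2 in its lower group, while control replicate 4 was among the high samples. The log2 fold change was 0.0086 (-0.34 to 0.35). Tap1 ran from 252 to 361 CPM in controls and from 279 to 381 CPM in cKO, and Tapbp from 415 to 573 CPM and from 489 to 701 CPM. Tap2 ran from 175 to 184 CPM in controls and from 157 to 195 CPM in cKO, a wider range. Psmb8 was at 125, 91.3, 92.7, 111 and 84.0 CPM, Psmb9 at 41.7, 27.6, 29.1, 36.1 and 24.9 CPM and Psmb10 at 39.4, 34.6, 26.1, 37.0 and 21.4 CPM in cKO replicates 1 to 5. For all 3 subunits cKO replicate 1 was the highest and replicate 5 the lowest of the cKO samples. Without the library labelled cKO replicate 4, as without control replicate 1, 0 of the 10 genes were called.

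Related lists had small medians in CD8 as well, and edgeR called 0 genes in each of them. Median log2 fold changes were -0.09 for other class I heavy chains and relatives, 0.01 for peptide loading and trimming, -0.03 for the constitutive proteasome, 0.04 for class I regulators, -0.01 for interferon-induced genes and -0.09 for MHC class II, with 0, 1, 0, 2, 1 and 0 genes at an unadjusted p under 0.05. Marker medians were -0.00039 for DP, -0.11 for CD8 single-positive, -0.11 for CD4 single-positive, 0.10 for B cells, 0.86 for macrophages and dendritic cells (2 tested), 0.11 for thymic epithelium (2 tested) and 0.42 for NK and gamma-delta T cells (4 tested), with 0, 1, 1, 0, 2, 0 and 1 genes at an unadjusted p under 0.05.

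Whether the cKO effect differed between CD8 and DP was tested as an interaction over all 16 samples. EdgeR placed 0 of the 10 past an adjusted p of 0.05 in either direction, against 0.107% of 12131 genes tested with a higher (13 genes) and 0% with a lower effect in CD8. At an unadjusted p under 0.05 there were 0 of the 10, against 639 of all genes tested. There was 1 without DP cKO replicate 2, CD8 control replicate 1 or CD8 cKO replicate 1, and there were 2 with the replicate block. DESeq2 was not used for this test. With single samples left out the 13 became 0 (without DP control replicate 2 or DP cKO replicate 2) to 11. With the replicate block there were 30 genes with a higher and 3 with a lower effect in CD8. The differences ran from -0.37 (Psmb9) to 0.41 (H2-K1 and Nlrc5), with a smallest adjusted p of 0.950. For H2-K1 the 95% confidence interval was -0.17 to 1.0 and for Nlrc5 -0.13 to 0.95. With single samples left out the difference of H2-K1 ran from 0.14 to 0.58. Among the lists, 1 gene passed, the interferon-induced Samhd1 (1.02, adjusted p = 0.0499), with a log2 fold change of -0.91 in DP and 0.12 in CD8. Its adjusted p was above 0.05 in 12 of the 16 runs with a sample left out, and reached 0.184.

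How the 10 genes varied within a group was described by the deviation of log2(CPM + 1) in each sample from the group mean. In DP cKO replicate 3 all 10 genes were above their group mean, by 0.18 on average, and in DP control replicate 2, 9 of 10 were, by 0.15. In CD8 control replicate 4 and in the library labelled cKO replicate 4, 9 of 10 were above, by 0.19 and 0.23. CD8 control replicate 1 had the lowest mean, -0.26, with 8 of 10 below and with Psmb10 at -0.74 and B2m at 0.40. The SD of log2 values over samples was 0.40 for H2-K1 in control DP and 0.03 for Tap2 in control CD8, beside medians over all genes of 0.18 and 0.21.

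**Figure D5:**
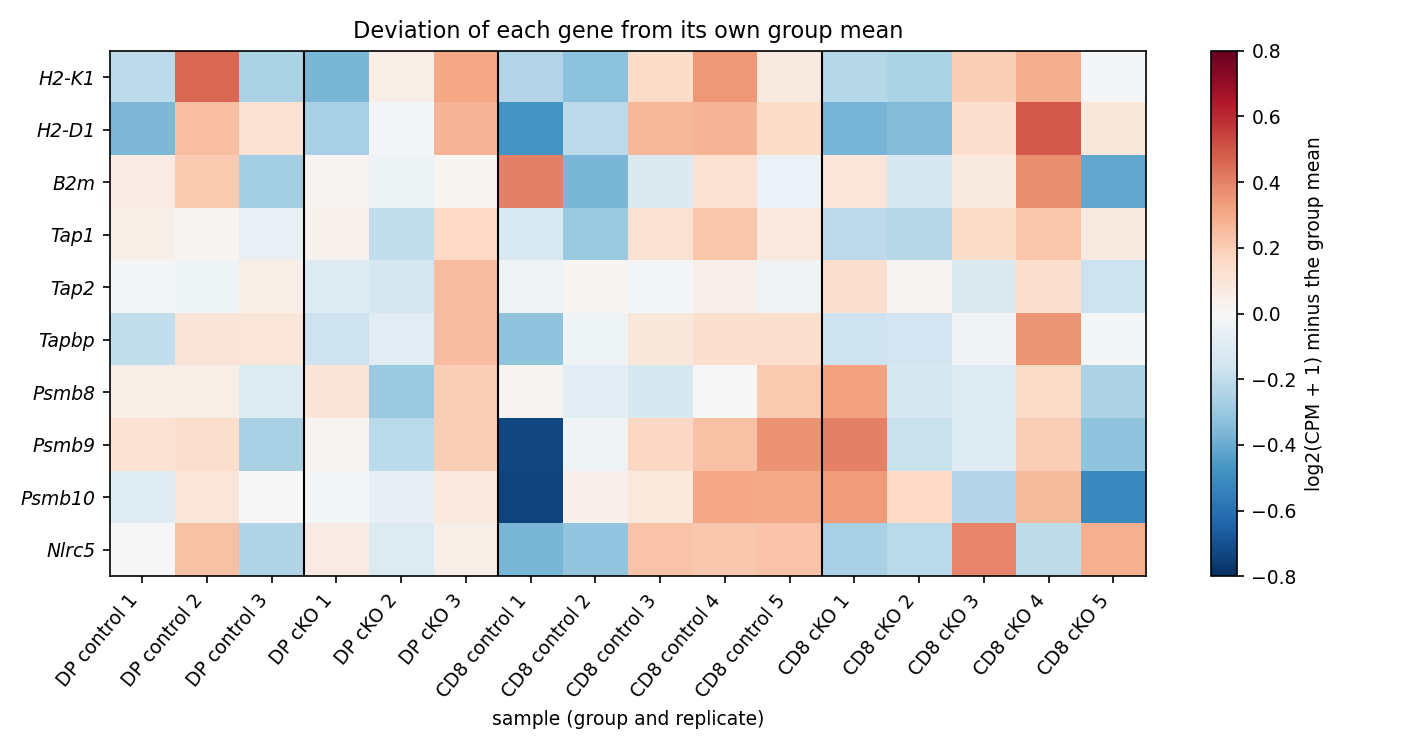
Deviation of each gene from its own group mean in each of the 16 samples, in log2(CPM + 1), with vertical lines between groups. DP cKO replicate 3 is red for all 10 genes, and CD8 control replicate 1 is the darkest blue for Psmb9 and Psmb10 and red for B2m.

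Among all expressed genes, those nearest to the mean profile of the 10 over 16 samples were Zdhhc18, Mthfd1l, Adar, Pml and Vsir, with root mean square distances of 0.09, 0.12, 0.13, 0.13 and 0.14 in log2 units, against a median of 0.82 over all genes. Of the 10 themselves, Tapbp lay nearest to their mean (0.11) and Nlrc5 (1.38), H2-K1 (1.23) and Tap2 (1.20) farthest. The genes also share their place in the genome: 7 of the 10 lie on chromosome 17, with Psmb9, Tap1, Psmb8 and Tap2 between 34182099 and 34216321, and these 4 genes ran from a log2 fold change of -0.80 to 1.17 in control CD8 against control DP.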

How the data were processed

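Gene expression was measured by polyA, strand-specific RNA-seq in 16 thymocyte samples. The deposited tables hold raw fragment counts per gene and the summed exonic length of each gene (other values), which the authors made with fastp 0.13.1, HISAT2 2.1.0 on mm10 and featureCounts 1.6.1. The tables hold 24984 genes for DP and 24974 for CD8, joined by symbol, and 0 columns were left unused. Each comparison was fitted over all genes with edgeR 4.0.16 (R 4.3.3, limma 3.58.1) by quasi-likelihood with TMM factors, filterByExpr and Benjamini-Hochberg adjustment, on its own groups, and the interaction on all 16 samples. A call needed an adjusted p under 0.05, a fold of at least 1.5 and a mean of at least 1 TPM, and the interaction an adjusted p under 0.05 alone. Single genes were also tested by exact 2-sided permutation of mean log2(CPM + 1). DESeq2 1.42.0, other scalings, no filter, other thresholds, a fit over all 4 groups, a replicate block and leaving out single samples were tried as alternatives, as was TPM for the overlap of groups, chosen after seeing the data. Total counts ran from 8514135 to 25981683 per sample. Intervals are at 95% and come from the fit.

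The named genes are the 10 class I genes, Tox4, genes of fixed lists (class I relatives, proteasome, regulators, interferon-induced genes, class II and cell type markers) and the 5 genes with the smallest root mean square distance to the mean profile of the 10. H2-Q1, on none of the lists, is named only for the stretches it shares with H2-D1. The 10 genes and the lists were chosen with earlier results of these data known. Whether samples with the same replicate number go together was checked by correlating their deviations from the group mean. In CD8 every same-number correlation was at least 0.115. Control replicate 4 there correlated more with cKO replicate 3 (0.451) than with the library labelled cKO replicate 4 (0.361). In DP the lowest same-number correlation was 0.0767 and the highest 0.703. Mean correlations were 0.376 for the same number and -0.180 for different numbers in DP, and 0.309 and -0.080 in CD8. The labels do not say whether a number marks a pair, so the replicate block is given as an alternative only. The tests were tested on simulated data. Protein sequences were not used here. The values of 1 gene of the lists are not reported here.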

Additional observations from a re-analysis of the deposited data

Results flagged for a closer look

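In 65 groups of 5 samples, 6 had a sample whose gap to the others was large for the range of its group, where chance gives about 1 in 20 groups (3.25). CD8 control replicate 1 was such a sample in 4 of the measures. It had counts on 17741 genes, against at most 15054 in the other CD8 samples, and 17628 against at most 14683 when thinned to the smallest total. Its summed level of B cell markers was 44.8 CPM (next control 15.9 CPM, CD8 cKO up to 28.7 CPM), its B2m per heavy chain was 3.21 in TPM (next control 1.89, CD8 cKO up to 2.36), and its Psmb8 to Psmb5 ratio was 10.9 in TPM (next control 7.76, CD8 cKO up to 10.6). The library labelled CD8 cKO replicate 4 had Tapbp at 701 CPM, against 489 to 544 CPM in the other CD8 cKO samples and up to 573 CPM in the controls. CD8 cKO replicate 1 had a summed level of NK and gamma-delta T cell markers of 33.7 CPM (next cKO sample 17.5 CPM, CD8 controls up to 21.8 CPM). Samhd1 had a cKO effect that differed between CD8 and DP by 1.02 on the log2 scale (edgeR interaction, adjusted p = 0.0499), and did not pass in 12 of the 16 runs with a sample left out (adjusted p up to 0.184).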

How the results depend on the processing

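Of the 10 genes, 0 were called in either cKO comparison or in the interaction under every alternative run (13 in DP, 18 in CD8, 20 for the interaction), and all 10 had the same direction in control CD8 against control DP under all 15. There the count called lower (1) was 2 with the replicate block, by adjusted p alone, with all 4 groups in the fit and, with single samples left out, 1 to 2 (2 without DP control replicate 3 or CD8 control replicate 5), through Psmb8. With no filter and with DESeq2 the median over all genes in that comparison was 0.33 and 0.36.

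Over all genes, cKO DP had 10 called higher and 7 lower. These were 45 and 29 with no filter, 91 and 68 with DESeq2, 17 and 25 with all 4 groups in the fit, 74 and 57 with the replicate block (not every DP sample correlates best with its own number), and 0 to 6 and 0 to 2 with single samples left out. In CD8 the 10 higher and 1 lower were 25 and 6 with the replicate block (there too CD8 control replicate 4 correlates best with a cKO sample of another number), 34 and 10 with DESeq2, 2 lower by adjusted p alone or with all 4 groups in the fit, 4 higher without both samples numbered 1, and 3 to 18 and 1 to 2 with single samples left out. The 13 and 0 of the interaction were 3 higher with upper-quartile scaling, 2 lower with no filter, 30 and 3 with the replicate block and 0 to 11 higher with single samples left out. The cause was not tested. In DP, 2 of the 10 genes were at an unadjusted p under 0.05, and 0 to 5 over the alternatives (5 with the replicate block). Of all 11748 genes tested 1079 were, and 1941 with the replicate block. For the interaction 0 of the 10 were, and 0 to 2 over the alternatives (2 with the replicate block). Of all 12131 genes tested there 639 were, and 1171 with the replicate block. The 4 genes whose DP groups do not overlap in CPM (15.1% of all genes tested) were 2 in TPM, an alternative chosen after seeing the data. No share over all genes is given in TPM.

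Log2 fold changes near 0 changed sign when single samples were left out. In DP this held for Tapbp (-0.15 to 0.049) but not for B2m (-0.47 to -0.22), Psmb9 (0.21 to 0.43) or Psmb10 (0.061 to 0.17). In CD8 it held for H2-K1 (-0.093 to 0.081), H2-D1 (-0.037 to 0.19), B2m (-0.19 to 0.027), Tap2 (-0.047 to 0.035), Tapbp (-0.020 to 0.12), Psmb8 (-0.15 to 0.0035), Psmb9 (-0.17 to 0.066), Psmb10 (-0.15 to 0.11) and Nlrc5 (-0.099 to 0.074). Without both samples numbered 1, B2m was at 0.012 and Nlrc5 at -0.00633, and with the replicate block Psmb10 was at 0.000746. Without both samples numbered 1, Psmb9 was at -0.28 and Psmb10 at -0.24 (adjusted p of 0.914 and 0.918). Groups of 3 limit the DP comparison, and its permutation p cannot go below 0.1.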
